A study of Mus musculus with 8 samples.

Results

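The genes described here encode enzymes that modify or crosslink collagen, together with a collagen chaperone, and were read from the deposited gene table by symbol. All 10 of 10 symbols were found, each on a single line among 51912 genes, and all 10 passed the filter on low counts that left 20315 genes for testing. They comprise the lysyl oxidase-like genes Loxl2, Loxl3 and Loxl4, the lysyl hydroxylase genes Plod1, Plod2 and Plod3, the prolyl 4-hydroxylase genes P4ha1, P4ha2 and P4ha3, and Serpinh1. Sequencing libraries came from sorted mesenchymal cells of mouse lung at embryonic day 16, although the tissue label reads bulk lung. The 4 Sin3a CKO libraries were from embryos with the alleles Tbx4rtta, tetocre and Sin3a F/F, and the 4 Control libraries from embryos with Tbx4rtta, tetocre and Sin3a F/+. All mothers were fed doxycycline from embryonic day 12, which lets the rtTA protein made under Tbx4 control turn on Cre in lung mesenchyme. Controls thus carried the same transgenes, drug and 1 floxed allele of Sin3a, whose product holds together corepressor complexes with histone deacetylases. Neither the extent of deletion nor the surface markers used for sorting are stated in the labels.

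Collagen chains are hydroxylated on prolines and lysines while they enter the endoplasmic reticulum. Prolyl hydroxylation keeps the triple helix stable at body temperature, some hydroxylysines receive sugars, and a dedicated chaperone escorts the folded trimer towards the Golgi. After secretion, copper-dependent lysyl oxidases turn lysines and hydroxylysines into aldehydes that link neighbouring molecules. In fetal lung these steps shape the interstitial fibres and basement membranes around airways and vessels.

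Sin3a had 56.6, 61.0, 53.2 and 61.0 CPM (counts scaled to library size) in Sin3a CKO 1 to 4, against 53.7, 46.8, 46.2 and 58.7 CPM in Control 1 to 4. Its log2 fold change, Sin3a CKO over Control here and throughout, was 0.17 ± 0.09 (SE, 4 against 4 libraries), which missed the threshold (edgeR adjusted p = 0.191), although it passed in 3 of 18 alternative analyses. Any reads from outside the deleted part would count towards this level, so it does not check the genotype. Why the level did not fall was not tested. Totals ranged from 96098322 to 108493347 counts per library. Of the 20315 genes tested 3518 rose and 3274 fell, or 2790 and 4522 with upper-quartile scaling, under which the median of all genes shifted by -0.108.

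Transcripts of other cell types were present in differing amounts. Of 7 erythroid markers 6 rose and 0 fell, and their summed level was 1095 to 4290 CPM in Sin3a CKO and 100.5 to 883 CPM in Control. Of 8 epithelium markers 0 passed, with sums of 44.5 to 1260 CPM in Sin3a CKO and 42.4 to 425 CPM in Control. Endothelium markers summed to 57.2 to 120.1 CPM in Sin3a CKO and 41.6 to 208 CPM in Control (1 of 8 fell), and immune markers to 152 to 271 CPM in Sin3a CKO and 16.1 to 382 CPM in Control (0 of 8 passed). Sums for mesothelium markers, of which Krt19 is also in the epithelium list, were 33.7 to 78.9 CPM in Sin3a CKO and 44.6 to 79.0 CPM in Control (1 of 8 fell), and for chondrocyte markers 20.9 to 41.999 CPM in Sin3a CKO and 39.3 to 44.3 CPM in Control (1 of 7 fell). Neural crest and nerve markers summed to 6.43 to 8.22 CPM in Sin3a CKO and 11.6 to 18.8 CPM in Control (3 of 8 fell). Matn1 was at 0 in Sin3a CKO 4 and Sox10 was at 0 in Control 4. Of 8 mesenchyme markers 3 fell (Pdgfra, Pdgfrb and Foxf1) and 5 did not pass. These 5 had log2 fold changes of 0.21 (Tcf21), 0.05 (Vim), -0.15 (Tbx4), -0.21 (Tbx5) and -0.62 (Twist1). The sum of all 8 was 2399 to 2684 CPM in Sin3a CKO and 2859 to 3895 CPM in Control. Markers of the labelled cell type were thus present in every library at different summed levels. Control 4, which also stood high for most of the genes described here, had the highest mesenchyme sum (3895 CPM) and, among controls, the lowest sums for immune (16.1 CPM, against 196 to 382 CPM in the other controls), endothelium (41.6 CPM, against 130 to 208 CPM), erythroid, epithelium and neural markers. The part these differences play in the results below was not tested; without Control 4 the log2 fold changes were -1.13 for Loxl2, -2.10 for Loxl4, -1.14 for P4ha2 and -0.58 for P4ha3. In such bulk RNA, fewer cells of a type and less RNA per cell cannot be told apart.

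Of the 10 genes 6 changed, where 33.4% of all tested genes did: 4 fell in Sin3a CKO (Loxl2, Loxl4, P4ha2 and P4ha3), where 16.1% of all tested genes fell, and 2 rose (Loxl3 and Plod3), where 17.3% of all tested genes rose. Plod1, Plod2, P4ha1 and Serpinh1 did not pass. A call here is a Benjamini-Hochberg adjusted p under 0.05 over all 20315 genes. Calls were a larger share of the less scarce genes. Of the 9901 genes with a mean of at least 10 CPM, fitted by themselves, 3012 rose and 2688 fell. The 9 of the 10 genes among them held 2 rises and 5 falls. Loxl2, Loxl4 and P4ha2 were at least 2-fold lower, a size of fall reached by 6.82% of tested genes. The median log2 fold change of the 10 genes was -0.27, beside 0.04 for all tested genes. The groups did not overlap for 6 genes (36.1% of tested genes): all knockout libraries lay below all controls for 5 of them (17.5% of tested genes) and above them for Loxl3 (18.5%). The plot of levels by library shows these patterns, including a control that stood above the others: Control 4 was the highest control for 9 of the 10 genes, Loxl4 being the exception, and the highest of all libraries for 7.

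**Figure D1:**
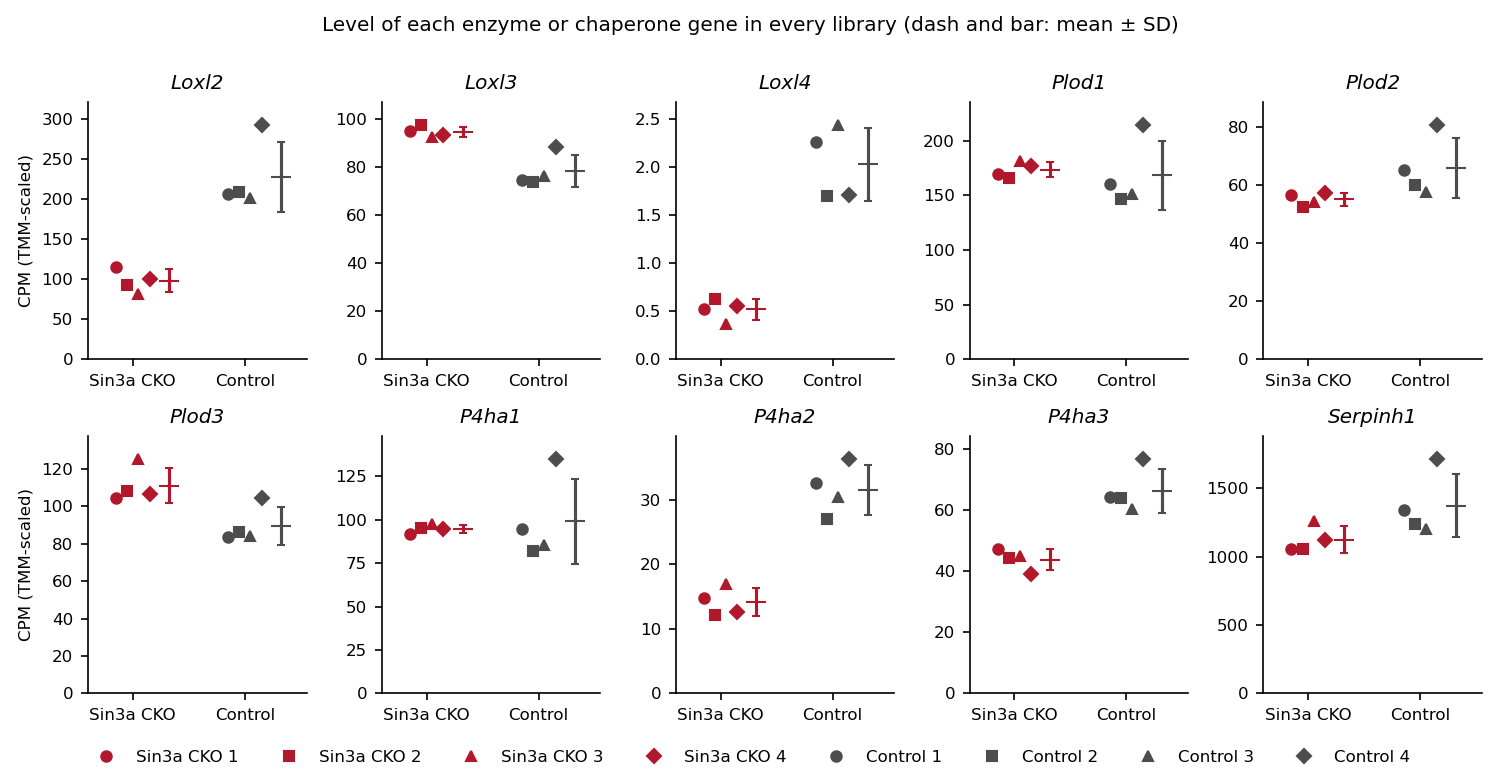
Level of each of the 10 genes in every library, in CPM on TMM-scaled library sizes (vertical axis, from 0 and separate for each gene), for the 4 Sin3a CKO and 4 Control libraries, with a dash and bar for mean ± SD. Loxl2, Loxl4, P4ha2, P4ha3 and, by a small margin, Plod2 lie lower in every Sin3a CKO library than in any Control library, while Loxl3 lies higher.

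The collagen prolyl 4-hydroxylases are tetramers of a catalytic alpha subunit and protein disulfide isomerase, and the 3 alpha subunit genes differed in their response. P4ha1, the alpha subunit gene most used in many tissues, had 91.8, 94.9, 97.4 and 94.8 CPM in Sin3a CKO 1 to 4, against 94.4, 81.7, 85.6 and 135 CPM in Control 1 to 4. The groups overlapped, with Control 4 far above the rest. Its log2 fold change was -0.07 ± 0.14 with a 95% interval of -0.39 to 0.25 (edgeR adjusted p = 0.781), or 0.06 without Control 4. P4ha2, which encodes an alternative alpha subunit, had 14.8, 12.2, 16.9 and 12.6 CPM in Sin3a CKO 1 to 4, against 32.6, 27.0, 30.4 and 36.3 CPM in Control 1 to 4. Every knockout was lower than every control. P4ha2 fell by 1.16 on the log2 scale (SE 0.13, edgeR adjusted p = 0.000177). P4ha3, the third alpha subunit gene, had 47.2, 44.1, 44.8 and 38.9 CPM in Sin3a CKO 1 to 4, against 64.3, 63.9, 60.2 and 76.5 CPM in Control 1 to 4. The groups again did not overlap, at a smaller distance than for P4ha2. P4ha3 fell by 0.60 (SE 0.09, edgeR adjusted p = 0.00107). P4hb, which encodes the shared beta subunit, had a mean of 1258 CPM in Sin3a CKO and 1219 CPM in Control and did not pass (0.05 ± 0.09, edgeR adjusted p = 0.752).

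Promoters of the P4HA genes and of Loxl4, all of which fell except P4ha1, are shown to let the responding genes be set beside a paralog that did not pass. Each is the 250 bases before the RefSeq transcription start on GRCm38.p6, read 5′ to 3′ along the gene, from chr10:59323046-59323295 (+ strand), chr11:54100674-54100923 (+ strand), chr7:100285270-100285519 (+ strand) and chr19:42612807-42613056 (- strand). Capitals mark ACGTG and GCGTG on either strand, the core letters bound by hypoxia-inducible factor (HIF), for which P4ha1 and P4ha2 are known targets.
P4ha1: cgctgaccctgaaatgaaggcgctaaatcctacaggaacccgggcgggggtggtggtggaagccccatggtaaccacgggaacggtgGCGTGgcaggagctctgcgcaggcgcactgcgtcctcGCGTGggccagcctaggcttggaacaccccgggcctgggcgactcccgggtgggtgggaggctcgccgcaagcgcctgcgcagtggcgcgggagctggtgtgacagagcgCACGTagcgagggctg
P4ha2: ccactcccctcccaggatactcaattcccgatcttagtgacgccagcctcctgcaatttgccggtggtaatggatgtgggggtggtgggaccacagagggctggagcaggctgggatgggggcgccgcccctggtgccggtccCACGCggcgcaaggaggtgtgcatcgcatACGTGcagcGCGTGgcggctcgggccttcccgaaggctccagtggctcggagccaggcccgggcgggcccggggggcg
P4ha3: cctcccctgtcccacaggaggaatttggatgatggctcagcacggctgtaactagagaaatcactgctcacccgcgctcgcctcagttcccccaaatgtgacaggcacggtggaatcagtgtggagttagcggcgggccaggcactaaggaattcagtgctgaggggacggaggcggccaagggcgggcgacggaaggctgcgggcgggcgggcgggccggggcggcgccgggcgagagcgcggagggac
Loxl4: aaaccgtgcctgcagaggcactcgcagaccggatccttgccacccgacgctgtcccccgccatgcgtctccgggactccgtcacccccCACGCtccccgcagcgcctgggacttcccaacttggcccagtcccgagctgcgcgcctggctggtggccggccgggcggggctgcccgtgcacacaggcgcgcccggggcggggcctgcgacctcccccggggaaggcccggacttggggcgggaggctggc
Sequences for 7 of the 10 genes were matched by symbol in the RefSeq table; Loxl2, Loxl3 and Plod2 had no entry. ACGTG on either strand was in 4 of the 7 windows and in 16.7% of 32536 distinct promoter windows of the same length, and GCGTG was in 5 of 7 and in 28.3%. P4ha1 held ACGTG beginning 16 bases before the start and GCGTG at 163 and 126 bases before it. P4ha2 held ACGTG at 78 and GCGTG at 107 and 69 bases before the start, whereas P4ha3 held neither. The P4ha2 window lies inside the annotated gene, which begins at 54100095, so its start is not the first annotated one. Loxl4 held GCGTG at 162 bases before the start. CACGTG, the E-box of MYC and MAX proteins, contains ACGTG and was in 0 of the 7 windows and in 6.04% of all windows. GGGCGG, the core letters bound by SP1, was in 6 of 7 and in 33.0%, with 5 matches in P4ha3, 3 in Loxl4, 2 in P4ha2 and 1 in P4ha1. TATAAA was in 1 of 7, in Plod1, and in 12.3%. GC content of the 4 printed windows was 69.6% for P4ha1, 70.0% for P4ha2, 67.2% for P4ha3 and 76.0% for Loxl4, with a median of 52.4% over all windows. GC-rich letters such as these motifs are met more often in GC-rich windows, and the matches are descriptions of the letters only.

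The lysyl hydroxylases act on collagen lysines at different places. Plod1 encodes an enzyme acting mainly within the helix. It had 169, 166, 182 and 177 CPM in Sin3a CKO 1 to 4, against 161, 146, 152 and 214 CPM in Control 1 to 4. The knockouts lay between Control 1 and Control 4. Its log2 fold change was 0.04 ± 0.12 with a 95% interval of -0.22 to 0.31 (edgeR adjusted p = 0.823), and -0.05 under upper-quartile scaling. Plod2, whose product hydroxylates the non-helical ends and thereby sets the type of crosslink formed, had 56.5, 52.4, 54.3 and 57.4 CPM in Sin3a CKO 1 to 4, against 65.4, 60.1, 57.8 and 80.8 CPM in Control 1 to 4. All knockouts were lower than all controls, but Sin3a CKO 4 and Control 3 were close. The log2 fold change of -0.26 ± 0.11 (95% interval -0.49 to -0.02) did not pass (edgeR adjusted p = 0.088); it was -0.11 with a block for identifier prefix and passed in 8 of 18 alternatives. Plod3 encodes an enzyme that also adds sugars to hydroxylysine and is needed in mice for basement membrane collagen. It had 104.5, 108.04, 125 and 107 CPM in Sin3a CKO 1 to 4, against 83.4, 86.1, 84.3 and 104.5 CPM in Control 1 to 4. Control 4 reached the lowest knockout and the other controls lay below all of them. Plod3 rose by 0.31 ± 0.10 (edgeR adjusted p = 0.0301), and the call was lost under upper-quartile scaling (0.21), without a filter (0.21) and without Sin3a CKO 2, Control 1, Control 2 or Control 3 (0.28 to 0.32).

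Serpinh1 encodes HSP47, the chaperone that binds the collagen triple helix in the endoplasmic reticulum. Serpinh1 had 1056, 1057, 1263 and 1124 CPM in Sin3a CKO 1 to 4, against 1340, 1240, 1204 and 1713 CPM in Control 1 to 4. Sin3a CKO 3 lay above Control 2 and Control 3, and the other knockouts below all controls. The log2 fold change of -0.29 ± 0.12 (95% interval -0.56 to -0.02) did not pass (edgeR adjusted p = 0.0958). It passed in 6 of 18 alternatives, among them DESeq2 (-0.32, adjusted p = 0.0195) and the fit without Sin3a CKO 3 (-0.39, edgeR adjusted p = 0.019), and was -0.14 with a block for prefix. Serpinh1 lies on chromosome 7 (99345376 to 99353239, GRCm38) at 932280 bases from P4ha3 (100285520 to 100319699), the only pair of the 10 genes on a shared chromosome.

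The lysyl oxidase-like enzymes held the largest falls among the 10 genes and also a rise. Loxl2, whose product crosslinks collagen IV of basement membranes, had 116, 93.1, 81.7 and 100.5 CPM in Sin3a CKO 1 to 4, against 206, 209, 201 and 292 CPM in Control 1 to 4. The highest knockout was well below the lowest control. Loxl2 (ENSMUSG00000034205, chromosome 14, 69609068 to 69695834, GRCm38) fell by 1.22 (SE 0.14, edgeR adjusted p = 0.000228), by 1.13 when Control 4 was left out and by 1.05 under a prefix block. Loxl4, a related scavenger receptor domain oxidase, was scarce, with 56, 61, 34 and 53 counts in Sin3a CKO 1 to 4, against 237, 173, 263 and 169 counts in Control 1 to 4. These were 0.526, 0.626, 0.364 and 0.556 CPM in Sin3a CKO 1 to 4, against 2.26, 1.70, 2.44 and 1.71 CPM in Control 1 to 4, without overlap. Loxl4 fell by 1.97 (SE 0.26, edgeR adjusted p = 0.00044). Loxl3, which is needed in mice for formation of palate and cartilage, had 95.2, 97.6, 92.6 and 93.5 CPM in Sin3a CKO 1 to 4, against 74.9, 73.7, 76.4 and 88.3 CPM in Control 1 to 4. All knockouts were higher than all controls, by a small margin over Control 4. Loxl3 rose by 0.27 ± 0.07 (edgeR adjusted p = 0.0181), and the call was lost without a filter (0.17) and without Sin3a CKO 2, Control 1, Control 2 or Control 3 (0.24 to 0.26), while upper-quartile scaling gave 0.17 and removal of length and GC trends 0.42.

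Genes that share exons on opposite strands touch both rises. Loxl3 shares 535 of its 4603 exonic bases with Htra2, a mitochondrial protease gene, and Plod3 shares 529 of 4519 with Znhit1, a chromatin remodelling subunit gene. Htra2 had a mean of 95.4 CPM in Sin3a CKO and 52.9 CPM in Control and rose by 0.85 ± 0.09 (edgeR adjusted p = 0.000119), whereas Znhit1, at 24.2 CPM in Sin3a CKO and 21.2 CPM in Control, did not pass (0.19 ± 0.14, edgeR adjusted p = 0.34). Whether counting used strand is not stated in the labels, and the part of such reads in the 2 rises was not tested. Loxl2 shares 301 of 5405 bases with an antisense transcript and Plod2 346 of 5392 with a provisional opposite-strand gene. No annotated gene overlapped Loxl4, Plod1, the P4HA genes or Serpinh1.

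The plot of fold changes sets the pooled values beside those within identifier prefixes of the labels, which do not say what a prefix means. Prefix s686 held Sin3a CKO 4 and Control 1 and 2, prefix s1244 held Sin3a CKO 1 to 3 and Control 3, and Control 4 alone had s722. Within prefixes s686 and s1244 the values were -1.04 and -1.06 for Loxl2, -1.84 and -2.27 for Loxl4, -1.24 and -1.06 for P4ha2, and -0.72 and -0.41 for P4ha3. For the rises they were 0.33 and 0.32 for Loxl3 and 0.33 and 0.42 for Plod3. Plod2 was at -0.13 and -0.09, Serpinh1 at -0.20 and -0.10, Plod1 at 0.20 and 0.18, and P4ha1 at 0.11 and 0.15. The direction was thus that of the pooled fit within both prefixes for 9 of 10 genes, P4ha1 being the exception, without a test because a side held 1 library in each prefix.

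**Figure D2:**
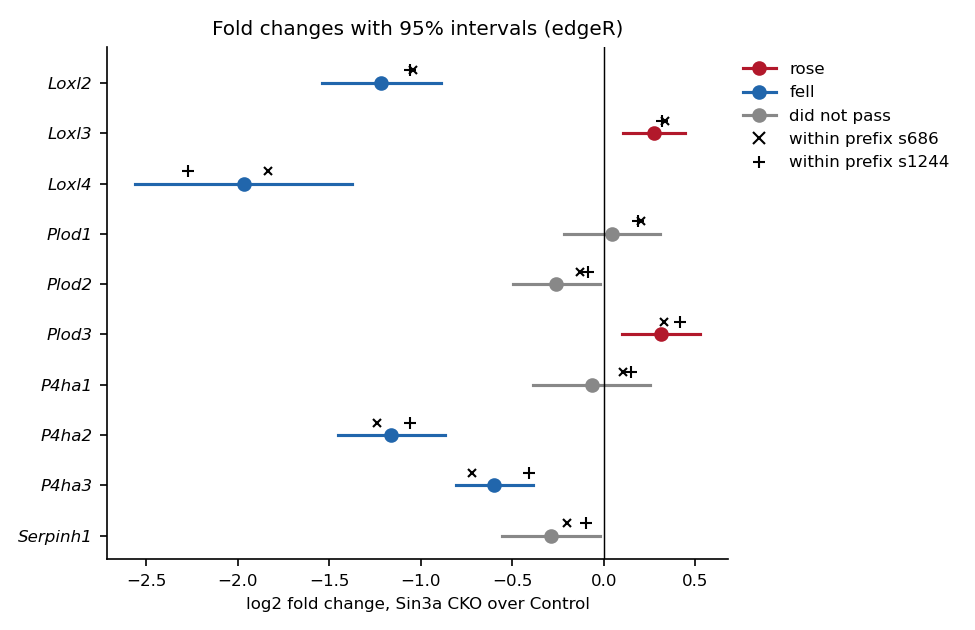
Log2 fold change of each gene, Sin3a CKO over Control (horizontal axis), as points with 95% intervals from edgeR, coloured by call, with a cross for the value within prefix s686 and a plus for that within prefix s1244. Loxl4 is farthest left at -1.97, followed by Loxl2 at -1.22 and P4ha2 at -1.16, and Plod3 farthest right at 0.31.

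Levels were compared between genes as CPM per kilobase of annotated exon. Serpinh1 stood apart at 461 ± 39.9 in Sin3a CKO and 562 ± 95.3 CPM per kilobase in Control (SD, n = 4 each), above 99.8% of tested genes. The next level in controls was Loxl2, at 18.1 ± 2.63 in Sin3a CKO and 41.99 ± 8.06 CPM per kilobase in Control. Plod1 (25.7 ± 1.02 in Sin3a CKO, 24.9 ± 4.63 in Control), P4ha1 (23.0 ± 0.554 and 24.1 ± 5.92), P4ha3 (13.96 ± 1.12 and 21.1 ± 2.27), Plod3 (24.6 ± 2.10 and 19.8 ± 2.22) and Loxl3 (20.6 ± 0.480 and 17.0 ± 1.47) followed in that order of control means. Among these, Plod1, P4ha1, P4ha3 and Plod3 each differed from the next of the 4 by less than the larger SD of the pair in controls, while Loxl3 lay below Plod3 in each control. Plod2 was at 10.2 ± 0.415 in Sin3a CKO and 12.2 ± 1.92 CPM per kilobase in Control, P4ha2 at 2.27 ± 0.348 and 5.06 ± 0.622, and Loxl4 at 0.123 ± 0.0264 and 0.482 ± 0.0900. Loxl4 was above only 27.7% of tested genes. In Sin3a CKO libraries Loxl2 stood below Plod1, Plod3, P4ha1 and Loxl3 in mean level. Exon length covers all annotated transcripts, 15 for P4ha2, so levels per kilobase are lowest estimates where few of them are used.

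Shares within a family do not depend on library scaling and were computed for the LOXL genes described here (Loxl2, Loxl3 and Loxl4, leaving out Loxl1), the PLOD family and the P4HA family. Of the summed level of these 3 LOXL genes per kilobase Loxl2 took 50.7, 44.7, 42.8 and 47.6% in Sin3a CKO 1 to 4, against 69.4, 70.2, 68.4 and 73.4% in Control 1 to 4. Loxl3 took 49.0, 55.0, 57.0 and 52.0% in Sin3a CKO 1 to 4, against 29.6, 29.1, 30.5 and 26.1% in Control 1 to 4. Per kilobase, Loxl2 was thus the larger of the pair in every control, and Loxl3 in every knockout but Sin3a CKO 1. In CPM not divided by exon length, Loxl2 was also the larger in Sin3a CKO 4 (100.5 CPM, against 93.5 CPM of Loxl3). The summed level of the 3 genes, which is not that of the whole LOXL family, was 38.8 ± 2.82 in Sin3a CKO and 59.5 ± 9.44 CPM per kilobase in Control (SD, n = 4 each), without overlap.

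Within the P4HA family P4ha1 took 56.1, 59.0, 58.2 and 61.5% in Sin3a CKO 1 to 4, against 47.2, 44.6, 46.4 and 52.0% in Control 1 to 4. P4ha3 took 35.5% ± 1.99 in Sin3a CKO and 42.3% ± 2.86 in Control, and P4ha2 5.76% ± 0.721 and 10.1% ± 0.790. For each of the 3 genes the groups did not overlap. Shares within a family make up a fixed whole, so the falls of P4ha2 and P4ha3 raise the share of P4ha1, which itself did not pass. The summed P4HA level was 39.3 ± 1.36 in Sin3a CKO and 50.3 ± 8.68 CPM per kilobase in Control. In the PLOD family the summed level overlapped between groups, at 60.5 ± 2.91 in Sin3a CKO and 56.9 ± 8.66 CPM per kilobase in Control. There Plod2 took 17.0% ± 1.04 in Sin3a CKO and 21.5% ± 0.664 in Control, and Plod3 40.6% ± 1.74 and 34.96% ± 1.70, each without overlap, while Plod1 took 42.4% ± 0.747 and 43.5% ± 1.51 with overlap. These shares are given as descriptions, with no test.

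**Figure D3:**
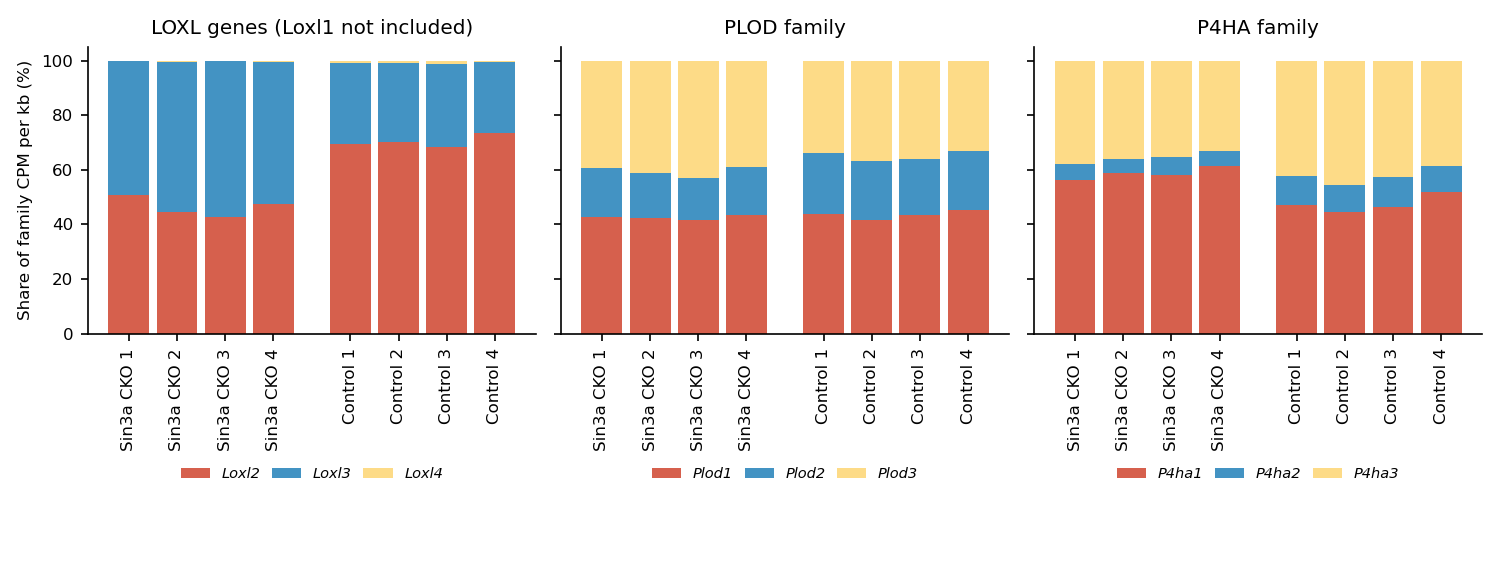
Share of each gene in the summed CPM per kilobase of its group (vertical axis, percent) in each Sin3a CKO and Control library, for 3 LOXL genes (Loxl1 left out) and for the PLOD and P4HA families. The Loxl2 part is 42.8 to 50.7% in Sin3a CKO and 68.4 to 73.4% in Control.

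The enzymes act on fibrillar collagen chains, which fell as well. Col1a1 and Col1a2, which encode collagen I, had means of 1991 and 2300.4 CPM in Sin3a CKO, against 3777 and 3793 CPM in Control, with log2 fold changes of -0.92 ± 0.14 and -0.72 ± 0.10. Col3a1, which encodes collagen III, was at 6078 CPM in Sin3a CKO and 9035 CPM in Control (-0.57 ± 0.12). Of 11 fibrillar chain genes 6 fell and 1 rose, with a median of -0.57. The summed CPM of Col1a1, Col1a2, Col3a1, Col5a1 and Col5a2 was 11649 ± 700.4 in Sin3a CKO and 18008 ± 2742 in Control (SD, n = 4 each), without overlap.

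Relative to that sum, the 10 genes differed in direction, as the plot of ratios shows. The log2 ratio was higher in every knockout than in any control for 6 genes, with a difference between group means, Sin3a CKO minus Control, of 0.93 for Plod3, 0.90 for Loxl3, 0.68 for Plod1, 0.58 for P4ha1, 0.37 for Plod2 and 0.34 for Serpinh1. It was lower in every knockout for 3 genes, at -0.59 for Loxl2, -1.36 for Loxl4 and -0.55 for P4ha2. P4ha3 overlapped at 0.02, having fallen about as far as the collagen sum. For Serpinh1 the log2 ratios were -3.58, -3.40, -3.15 and -3.37 in Sin3a CKO 1 to 4, against -3.82, -3.66, -3.73 and -3.65 in Control 1 to 4. Because the collagen sum fell, a gene at a steady level has a higher ratio in Sin3a CKO. Plod1 and P4ha1 had higher ratios although neither passed. No share over all tested genes was computed for the 6 and 3 genes without overlap. These ratios were computed within libraries and show unequal change only. They carry no test.

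**Figure D4:**
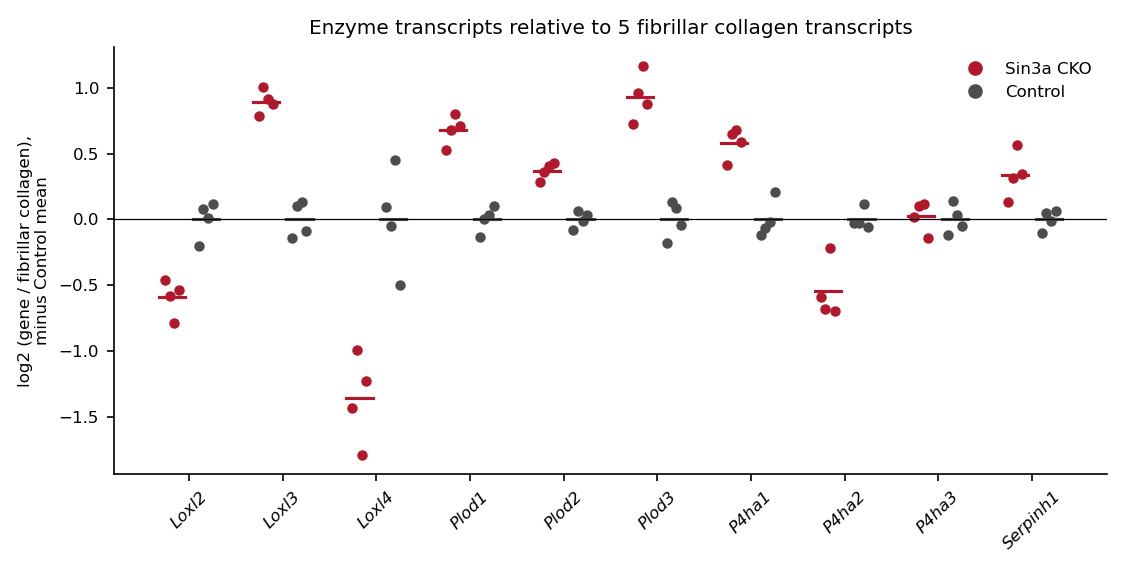
Log2 ratio of each gene to the summed CPM of 5 fibrillar collagen genes, shown as the difference from the Control mean (vertical axis), with a point for each Sin3a CKO and Control library and a line for the mean. Loxl2, Loxl4 and P4ha2 lie below the controls, P4ha3 at their level, and the other 6 genes above.

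Other genes of the pathway also moved in both directions. Of 15 other modification and folding genes 6 fell and 3 rose, with a median of -0.19. P3h1, which encodes a prolyl 3-hydroxylase, rose by 0.85 ± 0.09 (232 CPM in Sin3a CKO, 129 CPM in Control), whereas its relatives P3h3 and P3h2 fell by 1.33 (SE 0.12) and 0.61 (SE 0.12). P3h1 works in a complex with the products of Crtap and Ppib, named here after their values were seen, which were at -0.23 ± 0.08 and -0.17 ± 0.12 and did not pass. P3h3, a partner of the Plod1 enzyme in mice, had 59.2 CPM in Sin3a CKO and 149 CPM in Control. Colgalt1, which encodes a galactosyltransferase acting on hydroxylysine, rose by 0.46 ± 0.10, and Tmem38b, an endoplasmic reticulum cation channel gene, by 0.47 ± 0.09. Colgalt2, a scarce relative of Colgalt1, fell by 2.01 (SE 0.45), at 0.552 CPM in Sin3a CKO and 2.23 CPM in Control. Fkbp14, a collagen prolyl isomerase gene, fell by 0.92 (SE 0.08) and Tgm2, transglutaminase 2, by 0.94 (SE 0.19). The founding oxidase gene Lox was at 871 CPM in Sin3a CKO and 993 CPM in Control and did not pass (-0.19 ± 0.13, edgeR adjusted p = 0.309), while Loxl1, used in elastic fibres, fell by 1.12 (SE 0.24).

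Of 14 tested export and propeptide processing genes 5 fell and 0 rose, with a median of -0.20. Sec24d, which encodes a coat protein for vesicles leaving the endoplasmic reticulum, fell by 1.00 (SE 0.11), and Pcolce and Pcolce2, enhancers of C-propeptide removal, by 1.22 (SE 0.13) and 1.61 (SE 0.29). Adamts14, an N-propeptide protease gene, fell by 1.48 (SE 0.26). Of 11 basement membrane and network chain genes 7 fell and 0 rose, with a median of -0.89. Col4a1, the main collagen IV chain gene and a substrate of the Loxl2 and Plod3 products, was at 827 CPM in Sin3a CKO and 1650 CPM in Control (-0.996 ± 0.176), and Col8a2 at 7.17 CPM in Sin3a CKO and 36.5 CPM in Control (-2.34 ± 0.23). The plot by list sets these genes beside the 10 described here.

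**Figure D5:**
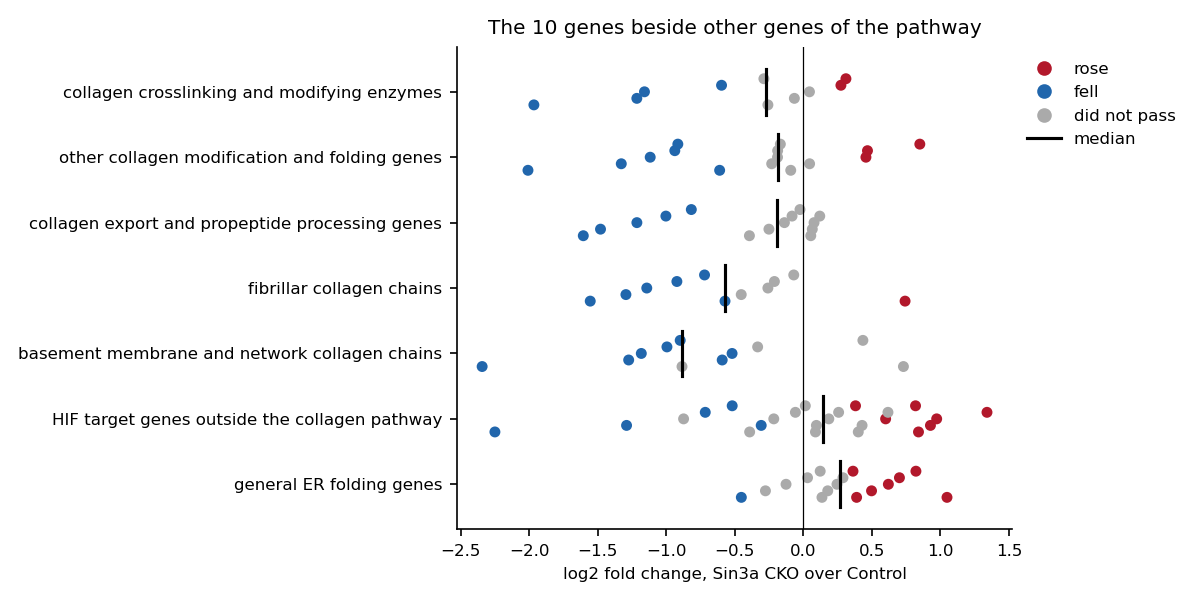
Log2 fold change, Sin3a CKO over Control (horizontal axis), of every tested gene in the 10-gene set and in 6 related lists, coloured by call, with a line at each median. The medians run from -0.89 for basement membrane and network chains to 0.27 for general endoplasmic reticulum folding genes, with -0.27 for the 10 genes.

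The control spread of each of the 10 genes was smaller with Control 4 left out. The coefficient of variation was larger in controls than in knockouts for 8 of the 10 genes, but for 3 (Plod1, Plod2 and P4ha1) with Control 4 left out. For P4ha1 it was 2.41% in Sin3a CKO and 24.6% in Control, or 7.48% without Control 4. For Loxl3 it was 2.33% in Sin3a CKO and 8.63% in Control, or 1.82% without Control 4, and for Loxl2 it was 14.5% in Sin3a CKO and 19.2% in Control, or 1.78% without Control 4. The mean standardized profile of the 10 genes was -0.43 to -0.14 SD in Sin3a CKO and -0.20 to 1.39 SD in Control, the highest value being that of Control 4. The tested genes most like this profile over the 8 libraries, by Pearson correlation of log2 CPM, were Nrf1 (0.99), Anapc2 (0.98), Cnn3 (0.98), Wnk4 (0.98) and Kitl (0.97). None of these 5 passed, and the likeness describes libraries that share Control 4 as their highest value.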

How the data were processed

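RNA from 8 libraries, 4 Sin3a CKO and 4 Control, was extracted with TRIzol and prepared with Takara SMARTer v4 and Nextera XT kits, per the labels' protocols. Group and replicate number came from sample titles. The authors deposited RSEM expected counts per gene, whole numbers in every cell, so rounding changed nothing. Per the submitters' processing notes, the tools were RSEM 1.3.0, STAR 2.5.3a and edgeR and the build mm10, with no role stated for each; annotation release and strand setting are not given in these sources. Library totals, 96098322 to 108493347, may include PCR copies, since the labels name no molecular identifiers. P-values measure the spread between these biological replicates, with no term for identifier prefix in the main fit.

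Tests used edgeR 4.0.16 (with limma 3.58.1, R 4.3.3). After filterByExpr at a minimum count of 10 and TMM scaling, groups were compared with the robust quasi-likelihood test, group as the only term, 2-sided, with Benjamini-Hochberg adjustment over 20315 genes. SE is the absolute log2 fold change over the square root of F. Positions and exon lengths came from GENCODE M21 (GRCm38, which is mm10) and promoters from RefSeq on GRCm38.p6. Ahsp and Mia2 of the lists matched no symbol, and 1 marker gene is not reported here by itself. Fits were tested on simulated data. The members, lists and tests were chosen with earlier results of these data known. Named pathway genes were up to 4 calls of smallest p per list and direction, plus Lox, Loxl1, P4hb, Col1a1, Col1a2 and Col3a1. The 5 tested genes most like the members' mean profile were named too. Htra2, Znhit1, Crtap, Ppib, Colgalt2 and the mesenchyme markers were added by name after values were seen. The alternatives tried were DESeq2 1.42.0, limma-voom, scaling by RLE or upper quartile, leaving out the filter or asking for 10 CPM on average, blocks for replicate number or identifier prefix, length and GC trends removed, each library left out, and Control 4 with Sin3a CKO 3 left out.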

Additional observations from a re-analysis of the deposited data

Results flagged for a closer look

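Samples far from the other 3 of their group were sought in 150 groups of 4, and 12 were found. Chance alone gives about 1 in 20 per group, but these groups share libraries and genes, so the 12 are not independent. The LOXL and PLOD sums contain Loxl2 and Plod3, and Nrf1 was chosen for likeness to a profile that was highest in Control 4. Control 4 was the high sample in 7 of the 12. It had 292 CPM of Loxl2, against 201 to 209 CPM in the other controls, and 104.5 CPM of Plod3, against 83.4 to 86.1 CPM. Its summed level of Loxl2, Loxl3 and Loxl4 was 73.7 CPM per kilobase (54.4 to 55.0 in the other controls) and its summed PLOD level 69.8 (51.8 to 54.3). It also had 34.2 CPM of Adamts14 (23.9 to 24.5), 101.2 CPM of Col4a5, a collagen IV chain gene (70.6 to 72.0), and 99.7 CPM of Nrf1 (80.3 to 83.5).

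Control 3 stood high for summed epithelium markers, at 425 CPM against 42.4 to 56.7 CPM, erythroid markers, at 883 CPM against 100.5 to 207 CPM, and mesothelium markers, at 79.0 CPM against 44.6 to 48.0 CPM. It was low for the folding cofactor gene Sdf2l1, at 41.6 CPM against 46.5 to 46.8 CPM. Sin3a CKO 4 had 68.6 CPM of Hk2, a hexokinase gene, against 49.2 to 50.6 CPM in the other knockouts.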

How the results depend on the processing

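Loxl2, Loxl4, P4ha2 and P4ha3 fell past the threshold in every alternative run, 18 for each and 17 for Loxl4, which a mean of at least 10 CPM removed; their ranges were -1.32 to -1.05, -2.10 to -1.79, -1.30 to -1.01 and -0.70 to -0.50, with adjusted p up to 0.00137, 0.00449, 0.00129 and 0.00659. Loxl3 passed in 13 and Plod3 in 12 of 18. The number of the 10 genes that rose was 2, but 1 under upper-quartile scaling, 0 without a filter and 0 to 2 with a library left out; the number that fell was 4, but 6 under upper-quartile scaling, without a filter, with DESeq2 and without Sin3a CKO 3, 5 under RLE scaling, with a mean of at least 10 CPM, without Sin3a CKO 4, without Control 4 and with Control 4 and Sin3a CKO 3 left out, and 4 in the others. Across all genes the number that fell also varied, from 3274 in the main fit. It was 4522 under upper-quartile scaling, 4097 with DESeq2, 3723 without Sin3a CKO 3 and 3630 under RLE scaling. Without a filter 3823 of 40662 genes fell and 2233 rose, and under upper-quartile scaling 2790 rose. With a library left out the numbers ran from 2653 to 3260 for rises and 2548 to 3723 for falls. Sin3a passed with a block for prefix (0.29), with Control 4 and Sin3a CKO 3 left out (0.22) and with length and GC trends removed (0.25). Plod1 changed sign under upper-quartile scaling (-0.0528), without a filter (-0.0534) and with a library left out (-0.0204 to 0.1253), and P4ha1 with a block for prefix (0.13), with Control 4 and Sin3a CKO 3 left out (0.0412), with length and GC trends removed (0.0058) and with a library left out (-0.1513 to 0.0612). The cause was not tested. The difference in P4ha2 share was -4.38 percentage points per kilobase and -6.92 from undivided counts, as its exons are the longest of the family; the P4ha3 ratio to collagen was -0.017 to 0.078 with a library left out. Replicate numbers did not pair the samples. Of 4 same-numbered pairs 2 had correlated deviations over 0.1, and 1 of 4 knockouts correlated best with its own number. Each knockout correlated best, however, with a control of its own identifier prefix. For Sin3a CKO 1 to 3 this was Control 3 (0.111, 0.297 and 0.218), and for Sin3a CKO 4 it was Control 1 (0.27). Prefixes were unevenly spread over the groups, and the main fit had no term for them. A prefix block kept 5876 of the 6792 calls in the same direction. With the replicate block 2 of the 10 genes rose and 4 fell, and 6782 genes were called in all, 6168 of the 6792 calls being kept. Loxl4, at 34 to 263 counts, is the gene most limited by depth.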

Other observations

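Some collagen-modifying enzyme genes are known targets of HIF, so other HIF targets were described as a group. Of 24 such genes 7 rose and 5 fell, with a median log2 fold change of 0.14 beside 0.04 for all tested genes. Hk2, a hexokinase gene, was at 54.6 CPM in Sin3a CKO and 21.6 CPM in Control and rose by 1.34 ± 0.12. Mxi1, which encodes a MAX partner that recruits SIN3 proteins, rose by 0.82 ± 0.08, and the mitochondrial genes Higd1a and Bnip3 by 0.97 ± 0.11 and 0.93 ± 0.13. Adm, which encodes adrenomedullin, was at 0.669 CPM in Sin3a CKO and 3.19 CPM in Control and fell by 2.25 (SE 0.39). Ddit4, an inhibitor of mTOR, fell by 0.72 (SE 0.14), Bhlhe40, a transcriptional repressor gene, by 1.29 (SE 0.37) and Pfkfb4, a regulator of glycolysis, by 0.52 (SE 0.16).

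Of 16 general folding genes of the endoplasmic reticulum 7 rose and 1 fell, with a median of 0.27. Sdf2l1, a chaperone cofactor gene, was at 93.9 CPM in Sin3a CKO and 45.4 CPM in Control and rose by 1.05 ± 0.14. Creld2 and Manf, which encode stress-induced proteins of this compartment, rose by 0.70 ± 0.12 and 0.50 ± 0.11, and Ero1lb, a disulfide oxidase gene, by 0.82 ± 0.14. Its relative Ero1l fell by 0.45 (SE 0.10). Among collagen genes, Col27a1 rose by 0.74 ± 0.11, and Col24a1 and Col11a1 fell by 1.56 (SE 0.14) and 1.14 (SE 0.17). Col4a6 and Col4a5, which encode collagen IV chains, fell by 1.18 (SE 0.17) and 0.90 (SE 0.18).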
